A study of Mus musculus with 6 samples.

Results

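The tumor necrosis factor (TNF) family was examined through 9 receptors and the ligand Trail (Tnfsf10), 10 of the 24190 genes in the count table, which were chosen by name. The receptors were Tnfrsf1a, Tnfrsf10b, Tnfrsf21 and Fas, which carry a death domain, Tnfrsf1b, Tnfrsf12a, Tnfrsf19 and Ltbr, which are membrane receptors without that domain, and Tnfrsf11b, which is secreted. RNA came from parental MTO54 cultures, a single AKP line of mouse colorectal cancer organoids derived from a genetically engineered tumor, so that all samples shared 1 genotype. Single cells were seeded in basement membrane extract in stem cell medium, which was replaced 2 days later, for 2 days, by new medium alone (control, n = 3) or by medium with Folfiri (n = 3). Folfiri combined SN38, the active form of the topoisomerase I inhibitor irinotecan, at 100 nM with the thymidylate synthase inhibitor 5FU at 50 μg/μl, a unit copied from the labels. A legend of the study gives a longer treatment than its methods and the labels do. The study calls its samples biological replicates, but the labels do not say whether those of a group were separate cultures, and p values measure the spread between these samples.

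TNF family ligands are mostly membrane-anchored trimers that cluster their receptors. Receptors with a death domain can assemble Fadd and caspase-8 and start apoptosis, or recruit Ripk1 and Traf2 and lead to NF-kB. Receptors without it bind TRAF adaptors directly and lead to the canonical and non-canonical NF-kB branches. In the intestinal epithelium, Tnf and Trail are known for cell death in inflammation and after genotoxic stress, whereas Tnfrsf19 (Troy) is known as a stem cell gene of the crypt.

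Total counts ranged from 22103591 to 30098210 per sample. Levels are CPM scaled by TMM, given for replicates 1, 2 and 3 of a group in that order, and adjusted p values are those of edgeR's quasi-likelihood test over 14692 tested genes. Of these genes, 79.1% differed between Folfiri and control, 40.3% being higher and 38.8% lower, and the median log2 fold change was 0.02. Control replicates 2 and 3 lay closer to each other than to control replicate 1, with a chi-square statistic per degree of freedom of 3.84 against 23.7 and 22.4, and Folfiri replicates 1 and 2 (3.55) lay closer to each other than to Folfiri replicate 3 (12.3 and 11.9). The 8 epithelial markers were all detected, at a summed level of 5729 to 6636 CPM in controls and 4644 to 4814 CPM after Folfiri, where 1 was higher and 4 lower. Of 12 immune and 8 fibroblast markers, 11 and 7 had a row in the table. Their summed levels were 21.7 to 26.4 and 1.08 to 1.44 CPM in controls and 23.2 to 24.0 and 2.06 to 2.45 CPM after Folfiri. Most of the immune sum was Cd68, and the other 10 immune markers, a set chosen after the values were seen, summed to 0.879 to 1.04 CPM in controls and 2.91 to 3.26 CPM after Folfiri. In bulk RNA, fewer cells of a type and less RNA per cell cannot be told apart.

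Promoter windows of RefSeq on GRCm38.p6, from 250 bases before to 50 bases after an annotated start, were found for 8 of the 10 genes and not for Tnfrsf10b or Tnfrsf11b. Those of Fas and Tnfrsf21, those of the 9 receptors with the largest fold changes, and of the ligand Tnfsf10 are shown 5′ to 3′ on the strand of the gene. Capitals mark AP-1 motifs (TGANTCA) and GC boxes (GGGCGG) on either strand.
Fas, chr19:34290409-34290708, + strand: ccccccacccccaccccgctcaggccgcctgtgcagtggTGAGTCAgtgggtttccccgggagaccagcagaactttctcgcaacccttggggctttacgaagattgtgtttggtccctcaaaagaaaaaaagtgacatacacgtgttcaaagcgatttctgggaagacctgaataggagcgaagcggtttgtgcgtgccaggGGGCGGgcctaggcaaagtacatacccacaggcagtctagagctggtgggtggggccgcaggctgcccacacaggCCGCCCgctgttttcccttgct
Tnfrsf21, chr17:43016305-43016604, + strand: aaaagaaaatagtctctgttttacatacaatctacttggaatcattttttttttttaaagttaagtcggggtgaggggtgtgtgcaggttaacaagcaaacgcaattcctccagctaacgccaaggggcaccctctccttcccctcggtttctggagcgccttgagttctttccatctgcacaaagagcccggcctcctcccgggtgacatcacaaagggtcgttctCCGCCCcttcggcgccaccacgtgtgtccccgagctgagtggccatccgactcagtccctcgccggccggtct
Tnfsf10, chr3:27316827-27317126, + strand: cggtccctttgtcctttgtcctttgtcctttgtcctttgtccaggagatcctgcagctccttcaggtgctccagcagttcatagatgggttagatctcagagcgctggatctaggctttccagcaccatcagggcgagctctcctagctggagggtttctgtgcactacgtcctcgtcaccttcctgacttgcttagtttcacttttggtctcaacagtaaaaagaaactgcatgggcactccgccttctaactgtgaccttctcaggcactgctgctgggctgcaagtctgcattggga
The AP-1 motif was found in 1 of the 8 genes, Fas, starting at position -211 from the annotated start, and in 7.81% of the 32851 promoter windows of the genome. GC boxes were found in windows of 6 of the 8 genes and in 35.7% of all windows. The windows of Fas and Tnfrsf21 held 14 and 17 CpG dinucleotides and that of Tnfsf10 held 6, against a median of 7 over all windows. The 10-letter NF-kB motif and the TATA box (TATAAA), searched on both strands and present in 8.46% and 13.6% of all windows, had no match in the windows of the 8 genes. None of these motifs overlapped another in the windows shown. A match is a run of letters and not a measured binding site.

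Most of the receptors were higher after Folfiri. In edgeR's test, 7 of the 9 that could be tested were higher, Tnfrsf19 was lower and Tnfrsf1a was not called. Of all tested genes, 40.3% were higher and 38.8% lower. Fas passed the expression filter only through the Folfiri samples, and without it 6 of 8 were higher and 1 lower. These 8 had a median log2 fold change of 0.54. Tnfsf10 was too low for the filter. For all 10 genes the control and Folfiri samples did not overlap in CPM, as was the case for 81.5% of all tested genes, so separation by itself is near the background. The plot of members by sample shows the 6 values of each gene.

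**Figure D1:**
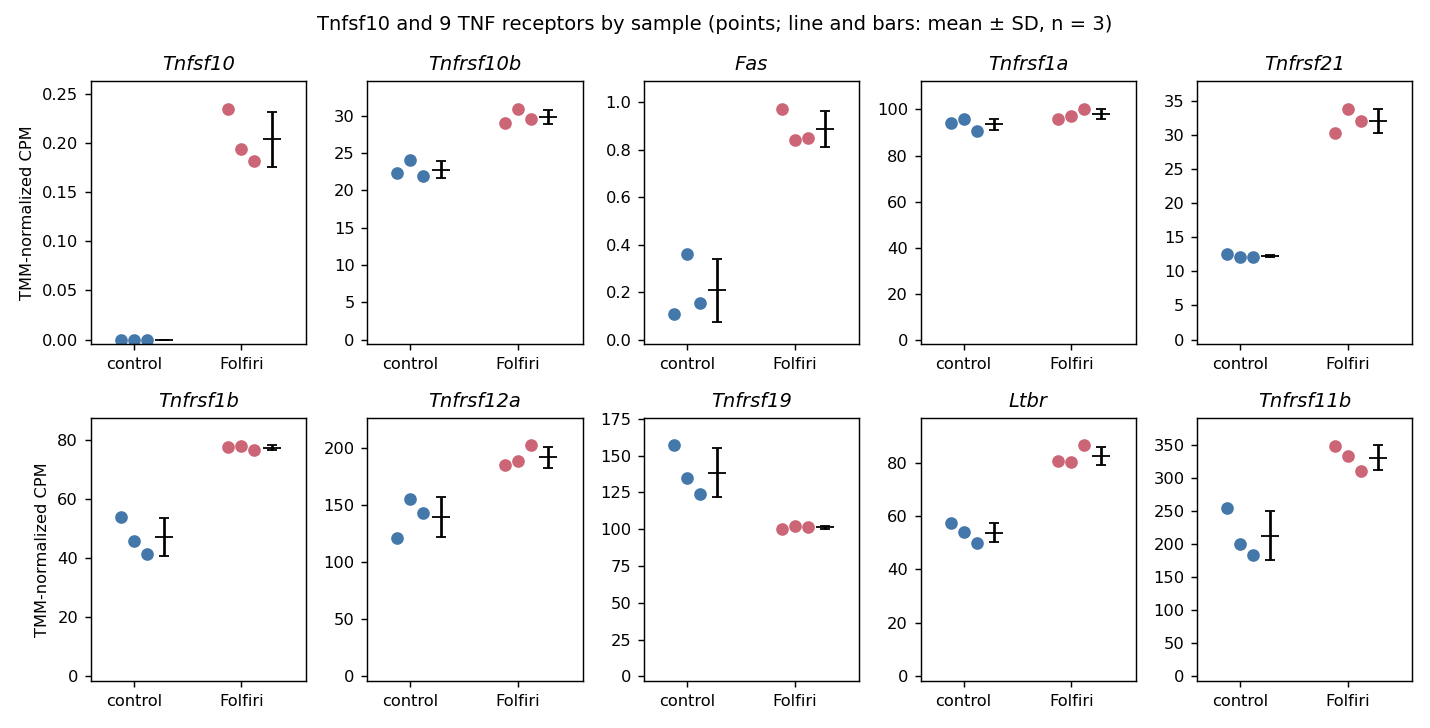
TMM-normalized CPM (vertical axes, linear) of Tnfsf10 and 9 TNF receptors in 3 control and 3 Folfiri samples, each point being 1 sample and the line and bars the mean and SD. Tnfrsf21 stood at 12.1 to 12.5 CPM in controls and 30.3 to 33.8 CPM after Folfiri, whereas the samples of Tnfrsf1a lay between 90.8 and 100.3 CPM.

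Trail, the ligand that triggers apoptosis through Tnfrsf10b in mice, was close to the detection limit. Tnfsf10 (ENSMUSG00000039304, chromosome 3 of GRCm38 from 27317028 to 27342427) had 0 counts in each control and 7, 6 and 6 counts in the treated samples. All of its reads were therefore in treated samples. Summed over the group this was 0.202 CPM (exact Poisson 95% interval 0.122 to 0.316, counting error only). The 0.202 CPM was 4.88-fold the level of a floor of 3 counts over the control group, leaving out the counting error of the treated samples. With no expression filter, edgeR's test over 24190 genes gave an adjusted p of 0.000625. Its receptor Tnfrsf10b (ENSMUSG00000022074, chromosome 14 from 69767472 to 69784411), the death-inducing Trail receptor of the mouse, was well detected. Controls had 22.4, 24.1 and 21.9 CPM and Folfiri samples 29.0, 30.9 and 29.5 CPM. All treated samples lay above all controls, with a log2 fold change of 0.39 (edgeR, SE 0.08, adjusted p = 0.00112). After Folfiri the log2 ratio of Tnfrsf10b to Tnfsf10, per kilobase of exon and with a pseudocount of 0.01, was 6.61, 6.93 and 6.93, so that receptor transcripts far outnumbered those of the ligand. The same ratio was 8.71 ± 0.0728 in controls (SD, n = 3), a value set by the pseudocount because the ligand was at 0. The difference of -1.89 (two-sided exact permutation p = 0.1, the smallest that 3 against 3 can give) became -0.0891 (p = 0.4 in the same exact permutation test) with a pseudocount of 0.1.

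Fas, the receptor of Fas ligand and a classical trigger of caspase-8, had the largest fold change and the lowest level among the 9 receptors. Fas (ENSMUSG00000024778, chromosome 19 from 34290666 to 34327772) had 3, 9 and 3 counts in controls and 29, 26 and 28 counts in treated samples. The highest control had fewer counts than any treated sample. In CPM this was 0.207 ± 0.134 in controls and 0.886 ± 0.0741 after Folfiri (n = 3 each, SD), a log2 fold change of 2.07 (edgeR, SE 0.37). Since Fas was tested only because it was high after Folfiri, its values are a description. The size of the change rested on few control reads, and without control replicate 2 the log2 fold change was 2.75. Some markers of immune cells and fibroblasts at a similar level, which also passed the filter only through the Folfiri samples, were higher after Folfiri. Ptprc was at 0.396 CPM in controls and 1.06 CPM after Folfiri, Adgre1 at 0.226 and 0.862 CPM, Fcer1g at 0.0819 and 0.537 CPM, Dcn at 0.0240 and 0.694 CPM and Pdgfra at 0.397 and 1.14 CPM. Of the immune list 3 of 4 tested markers were higher and Cd68 was not called, and of the fibroblast list 2 of 3 were higher and Col1a1 was lower. Itgam and Csf1r were at 0 in each control and had 3, 1 and 1 and 2, 3 and 3 counts in the treated samples. Col3a1, Pdgfrb and Thy1 were at 0 in each control and had 0 to 2 counts in each treated sample. Lyz2 and Tyrobp were at most 0.0202 CPM in the mean of either group. The part of such cells in the values of Fas and Tnfsf10 was not tested.

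The other death-domain receptors did not move alike. Tnfrsf21 (ENSMUSG00000023915, chromosome 17 from 43016555 to 43089189), known as death receptor 6, had the lowest adjusted p of the 9 receptors. Controls had 12.5, 12.2 and 12.1 CPM and Folfiri samples 30.3, 33.8 and 32.0 CPM. Every treated sample was far above every control, and the controls had an SD of only 0.202 CPM (n = 3). The log2 fold change was 1.39 (edgeR, SE 0.09, adjusted p = 1.63e-07). Higher calls with a log2 fold change of at least 1 made up 19.5% of all tested genes. Tnfrsf1a (ENSMUSG00000030341, chromosome 6 from 125349362 to 125362484), the receptor through which soluble Tnf mainly signals, was abundant in both groups. Its level was 94.1, 95.7 and 90.8 CPM in the control samples and 96.0, 97.3 and 100.3 CPM in the treated ones. The treated samples lay just above the controls, and the log2 fold change of 0.07 (edgeR, SE 0.06, adjusted p = 0.367) had a 95% interval from -0.08 to 0.21. With scaling by total counts only, which shifts the median of all genes to 0.30, Tnfrsf1a was called higher at 0.34 (adjusted p = 0.00136 from edgeR). Relative to the median of all genes it was 0.05 with TMM and 0.04 with total counts.

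Tnfrsf1b (ENSMUSG00000028599, chromosome 4 from 145213463 to 145246870), the second Tnf receptor, binds TRAF2 and prefers membrane-bound Tnf. Controls had 54.1, 46.0 and 41.3 CPM and Folfiri samples 77.7, 78.3 and 76.8 CPM. The treated samples were tightly grouped above all controls, with a log2 fold change of 0.72 (edgeR, SE 0.10, adjusted p = 4.59e-05). The pair of Tnf receptors was therefore compared within samples, a comparison chosen after the fold changes were seen. The log2 ratio of Tnfrsf1b to Tnfrsf1a per kilobase of exon was -1.56 ± 0.177 in controls and -0.89 ± 0.0438 after Folfiri (n = 3 each, SD). It was higher in all 3 treated samples than in any control (difference 0.66, two-sided exact permutation p = 0.1, the smallest possible). Tnfrsf1a remained the more abundant of the pair in each sample.

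The receptors of Tweak and of lymphotoxin β were also higher. Tnfrsf12a (ENSMUSG00000023905, chromosome 17 from 23675445 to 23677468) encodes Fn14, the Tweak receptor, an injury-induced gene in many epithelia. Its level was 120.8, 155.1 and 143.1 CPM in the control samples and 184.6, 188.0 and 201.9 CPM in the treated ones. Control replicate 1 was the lowest of the 6 samples, and the log2 fold change was 0.46 (edgeR, SE 0.09, adjusted p = 0.000996), or 0.36 without that sample. Ltbr (ENSMUSG00000030339, chromosome 6 from 125306571 to 125313885), which activates the non-canonical NF-kB branch, lies near Tnfrsf1a. Its level was 57.3, 54.2 and 50.0 CPM in the control samples and 80.5, 80.4 and 86.4 CPM in the treated ones. The groups were well apart, with a log2 fold change of 0.61 (edgeR, SE 0.08, adjusted p = 2.76e-05).

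Tnfrsf19 (ENSMUSG00000060548, chromosome 14 from 60963875 to 61046490) was the only receptor among the 9 that fell. Controls had 156.9, 134.5 and 123.9 CPM and Folfiri samples 100.1, 102.2 and 101.4 CPM. All treated samples lay below all controls, and the log2 fold change was -0.45 (edgeR, SE 0.09, adjusted p = 0.000685). With total counts only it was -0.18 and no longer called (adjusted p = 0.158 from edgeR), but relative to the median of all genes it was -0.47 with TMM and -0.48 with total counts. Without control replicate 1 the log2 fold change was -0.35. Tnfrsf11b (ENSMUSG00000063727, chromosome 15 from 54250619 to 54278484) encodes osteoprotegerin, a secreted decoy that binds Rankl and Trail. Its level was 254.2, 199.8 and 183.6 CPM in the control samples and 347.5, 332.5 and 310.4 CPM in the treated ones. The lowest treated sample was above the highest control, and the log2 fold change was 0.63 (edgeR, SE 0.11, adjusted p = 0.000373). Exons of the 10 genes shared no base with those of another annotated gene.

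To compare genes with each other, CPM was divided by the joined exon length in kilobases. On this level scale Tnfrsf11b and Tnfrsf12a led in controls, at 75.4 ± 13.1 and 72.3 ± 9.03 CPM per kb (n = 3 each, SD), and their samples overlapped. Tnfrsf1a (36.1), Tnfrsf19 (29.2), Ltbr (22.9) and Tnfrsf1b (12.4) followed, then Tnfrsf10b (4.18), Tnfrsf21 (2.98) and Fas (0.101), these being control means of CPM per kb with samples that did not overlap between neighbours. After Folfiri, Ltbr at 35.0 ± 1.47 passed Tnfrsf19 at 21.4 ± 0.229 CPM per kb, and Tnfrsf21 at 7.80 ± 0.431 passed Tnfrsf10b at 5.47 ± 0.181 CPM per kb (n = 3 each, SD). No neighbours in the order overlapped after Folfiri. The order depended in part on the length used. With the longest annotated transcript, tried after the data were seen, Tnfrsf12a led in both groups, at 141.9 and 194.6 CPM per kb against 75.4 and 117.1 for Tnfrsf11b, and Tnfrsf21 at 8.84 stayed below Tnfrsf10b at 9.38 CPM per kb after Folfiri, while Ltbr still passed Tnfrsf19. The summed level of the 9 receptors was 267.9, 259.1 and 239.5 CPM per kb in controls and 344.8, 343.4 and 345.2 CPM per kb after Folfiri. The share of Tnfrsf19 in that sum was 11.4% ± 0.825 in controls and 6.20% ± 0.0782 after Folfiri, and that of Tnfrsf21 was 1.17% ± 0.0547 and 2.26% ± 0.130 (n = 3 each, SD). Tnfrsf1a, whose own CPM was not called, held 14.1% ± 0.544 in controls and 10.97% ± 0.234 after Folfiri (n = 3 each, SD). The plot of receptor shares gives all 9 by sample.

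**Figure D2:**
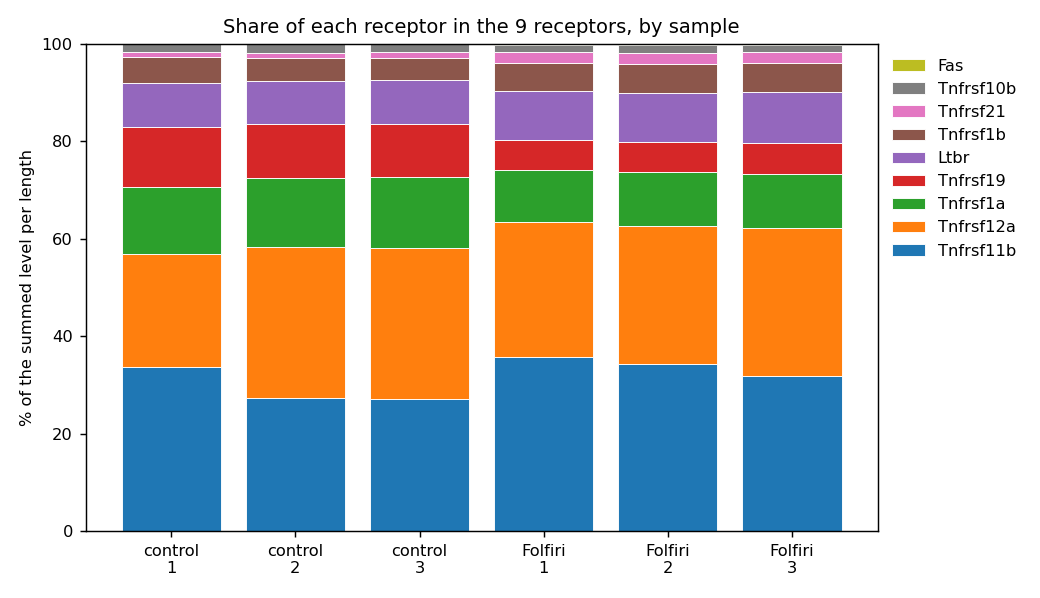
Share of each receptor in the summed level per length of the 9 receptors (vertical axis, percent of CPM per kb), 1 bar for each control and Folfiri sample. The band of Tnfrsf19 is narrower in all Folfiri bars (6.13% to 6.28%) than in the control bars (10.9% to 12.4%), and Tnfrsf11b is the widest band in every sample except control replicates 2 and 3, where Tnfrsf12a is. Lengths are those of joined exons, and with the longest transcript Tnfrsf12a had the higher level of the pair in every sample.

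The 4 death-domain receptors and the 4 membrane receptors without that domain among the members were set against each other. Receptors outside the members were left out, among them Ngfr, which has a death domain. Tnfrsf1a alone was at 36.1 CPM per kb in controls, so it made up most of the first sum. The summed level of these death-domain receptors was 43.4 ± 1.22 CPM per kb in controls and 51.5 ± 1.11 after Folfiri. That of the receptors without the domain was 136.7 ± 6.16 and 175.8 ± 6.09 CPM per kb (n = 3 each, SD). The log2 ratio of the sums was -1.62, -1.69 and -1.65 in controls and -1.77, -1.74 and -1.80 after Folfiri. It was lower in each treated sample (difference -0.116, two-sided exact permutation p = 0.1, the smallest possible). The direction depended on how genes were weighted. With the mean of log2 levels, which gives the rare Fas and Tnfrsf21 the same weight as Tnfrsf1a, the difference was 0.69 in the other direction. Most of that value came from Fas, which passed the expression filter only through the Folfiri samples, so the 0.69 is a description. With Fas left out, a choice made after the data were seen, the differences were 0.27 for the mean of log2 levels and -0.124 for the sums. The direction thus differed between the 2 ways of weighting with and without Fas.

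The rest of the receptor family was compared as a list of 19 further genes, of which 18 had a row and 12 were tested. In edgeR's test 9 were higher and 2 lower, against 40.3% and 38.8% of all tested genes, with a median log2 fold change of 1.49. Of the 12, 4 passed the filter only through the Folfiri samples, and the other 8 gave 5 higher and 2 lower with a median of 1.01. Tnfrsf22, which encodes a Trail decoy receptor of the mouse, rose from 40.3 ± 8.09 to 126.9 ± 10.1 CPM (n = 3 each, SD), a log2 fold change of 1.65 (edgeR, SE 0.13, adjusted p = 7.07e-07). Its close paralog Tnfrsf26 rose by 2.13 on the log2 scale, from 0.986 ± 0.0365 to 4.32 ± 0.498 CPM (n = 3 each, SD). Reads could be shared among these paralogs, and an antisense gene shares exonic bases with Tnfrsf26, so that their individual values are uncertain. Tnfrsf11a, the receptor of Rankl, for which Tnfrsf11b is a decoy, rose from 2.24 ± 0.300 to 5.67 ± 0.395 CPM (n = 3 each, SD), a log2 fold change of 1.33. Tnfrsf4, the costimulatory receptor Ox40, which passed the filter only through the Folfiri samples, rose by 3.03 on the log2 scale but from only 0.324 ± 0.0623 CPM (SD, n = 3). The 2 that fell were Tnfrsf8 (Cd30), at a log2 fold change of -0.65, and Ngfr, a neurotrophin receptor with a death domain, at -0.48. With total counts only, neither was called, and without control replicate 1 the log2 fold changes were -0.38 and -0.32.

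Among the other 17 ligands, 15 had a row and 7 were tested. In edgeR's test 4 of these were higher and 0 lower, against 40.3% and 38.8% of all tested genes. There were 0 lower also at an unadjusted p under 0.05 and in DESeq2. Of the 7, Ltb, Tnfsf4, Tnfsf13 and Tnfsf15 passed the filter only through the Folfiri samples, and of the other 3 only Tnf was higher, with a median log2 fold change of 0.16. For Tnf, controls had 3.10, 4.48 and 3.80 CPM and Folfiri samples 25.9, 29.9 and 31.6 CPM. All treated samples stood far above the controls, with a log2 fold change of 2.95 (edgeR, SE 0.14, adjusted p = 3.28e-08). Tnfsf15 (Tl1a), the ligand of Tnfrsf25, had 11, 3 and 1 counts in controls and 463, 678 and 558 counts after Folfiri, a log2 fold change of 6.42 (edgeR, SE 0.32), or 7.58 without control replicate 1. Tnfsf4, the ligand of Tnfrsf4, had 8, 0 and 0 counts in controls and 56, 86 and 68 counts after Folfiri. Its log2 fold change was 4.29 (edgeR, SE 0.56), or 3.69 without control replicate 2. Control replicate 1 held all 8 counts of the controls. Without it, the treated level of Tnfsf4 was 33.2-fold that of a floor of 3 counts over the remaining controls, leaving out the counting error of the treated samples. Since Tnfsf15 and Tnfsf4 were tested only because they were high after Folfiri, their values are a description. The plot of the family's fold changes places members, other receptors and other ligands side by side.

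**Figure D3:**
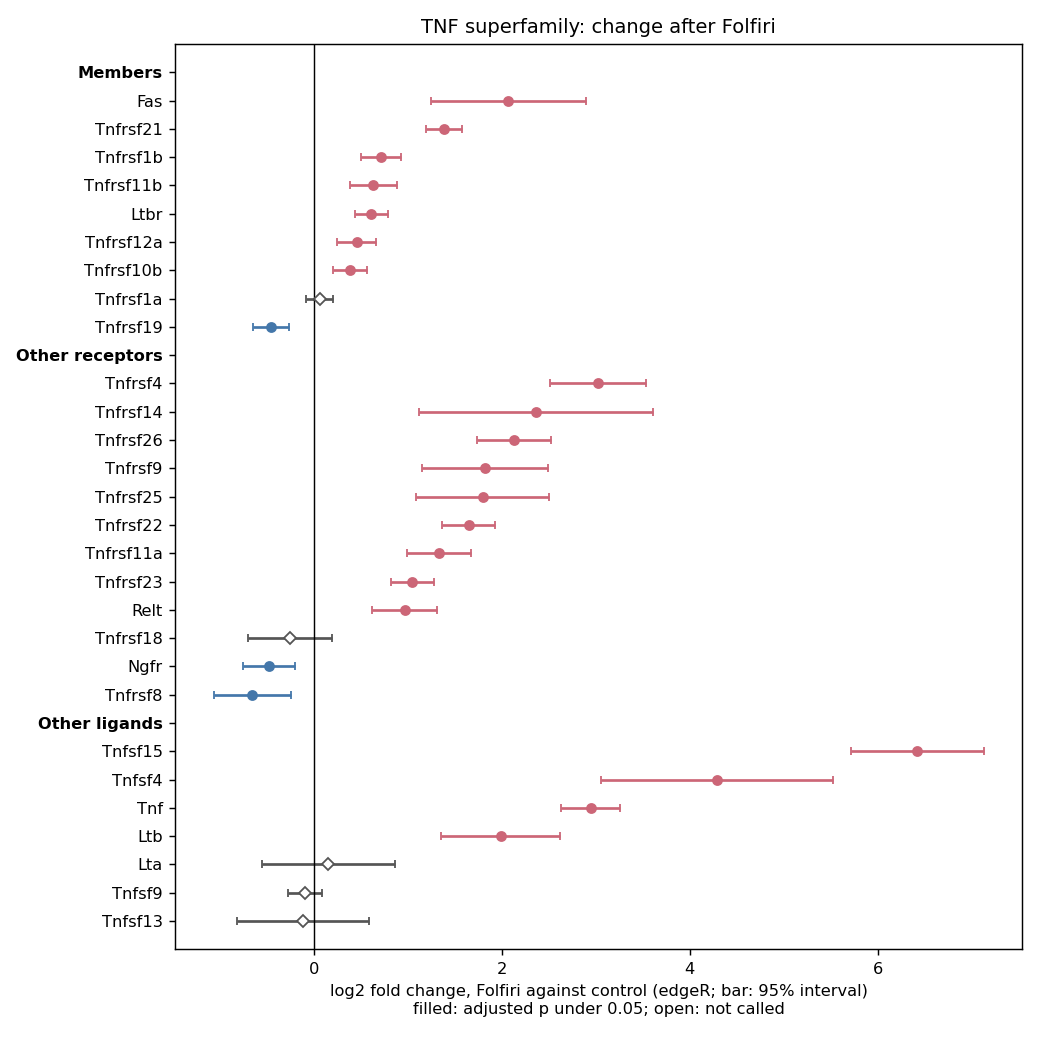
Log2 fold change after Folfiri against control (horizontal axis, edgeR) of the 9 tested members, 12 other TNF receptors and 7 other TNF ligands, with 95% intervals from 3 samples a group, filled where the adjusted p was under 0.05. Members lie between -0.45 for Tnfrsf19 and 2.07 for Fas, and Tnfsf15, which passed the expression filter only through the Folfiri samples, lies farthest to the right at 6.42.

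Below the receptors, the 19 genes of death receptor signalling went both ways, 8 being higher and 9 lower with a median log2 fold change of -0.03 (edgeR), shares near the 40.3% and 38.8% of all tested genes. Bid, the Bcl-2 family protein that links caspase-8 to mitochondria, rose from 4.82 ± 1.79 to 21.2 ± 0.749 CPM (n = 3 each, SD), a log2 fold change of 2.11. It shares exonic bases with Bcl2l13 on the opposite strand, and its reads are uncertain, since no source used here says whether reads were counted by strand. Tnfaip3 (A20), which restrains Tnf signalling to NF-kB, rose by 1.55 on the log2 scale, Birc3 (cIAP2), a ubiquitin ligase of the Tnf receptor complex, by 1.49, and Fadd, the adaptor of Fas and Tnfrsf10b, by 1.30, with an antisense gene across part of its exons. Casp8, the initiator caspase of this pathway, fell from 89.4 ± 8.99 to 45.8 ± 1.58 CPM (n = 3 each, SD), a log2 fold change of -0.96 (edgeR, SE 0.09, adjusted p = 2.22e-06). Also lower were Mlkl, the executor of necroptosis, at a log2 fold change of -1.63, Birc2 (cIAP1) at -1.15 and Tradd, the adaptor of Tnfrsf1a, at -0.73. With total counts only, 4 in place of 9 genes of this list were lower.

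Of the 14 TRAF adaptors and kinases of the NF-kB branches, 12 were higher and 1 lower, with a median log2 fold change of 0.70 (edgeR). The shares over all tested genes were 40.3% higher and 38.8% lower. Without Traf1, which passed the filter only through the Folfiri samples, 11 of 13 were higher and 1 lower, with a median of 0.68. Map3k14 (NIK), the kinase of the non-canonical branch used by Ltbr and Tnfrsf12a, rose from 2.24 ± 0.179 to 10.3 ± 0.785 CPM (n = 3 each, SD), a log2 fold change of 2.20 (edgeR, SE 0.14, adjusted p = 1.65e-07). Part of its exons is shared with an annotated transcript gene on the same strand, 1700028N14Rik. Traf3, which holds NIK in check, rose by 1.53 on the log2 scale, from 33.1 ± 3.35 to 95.6 ± 4.54 CPM, and Traf2, the adaptor of Tnfrsf1b, by 1.24, from 26.0 ± 1.56 to 61.7 ± 2.25 CPM (n = 3 each, SD). Traf5 rose by 1.31 from a low level, 0.887 ± 0.321 CPM in controls (SD, n = 3), and shares exonic bases with an antisense gene and a microRNA gene, so that its value is uncertain. Tab2, a partner of the kinase Map3k7, was the lower gene, at -0.21 (adjusted p = 0.0192 from edgeR). Its call was lost with upper quartile scaling (-0.15) and without control replicate 3 (-0.21) or Folfiri replicate 3 (-0.15), and its sign turned with total counts only (0.07). The plot of signalling genes gives all 33 fold changes.

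**Figure D4:**
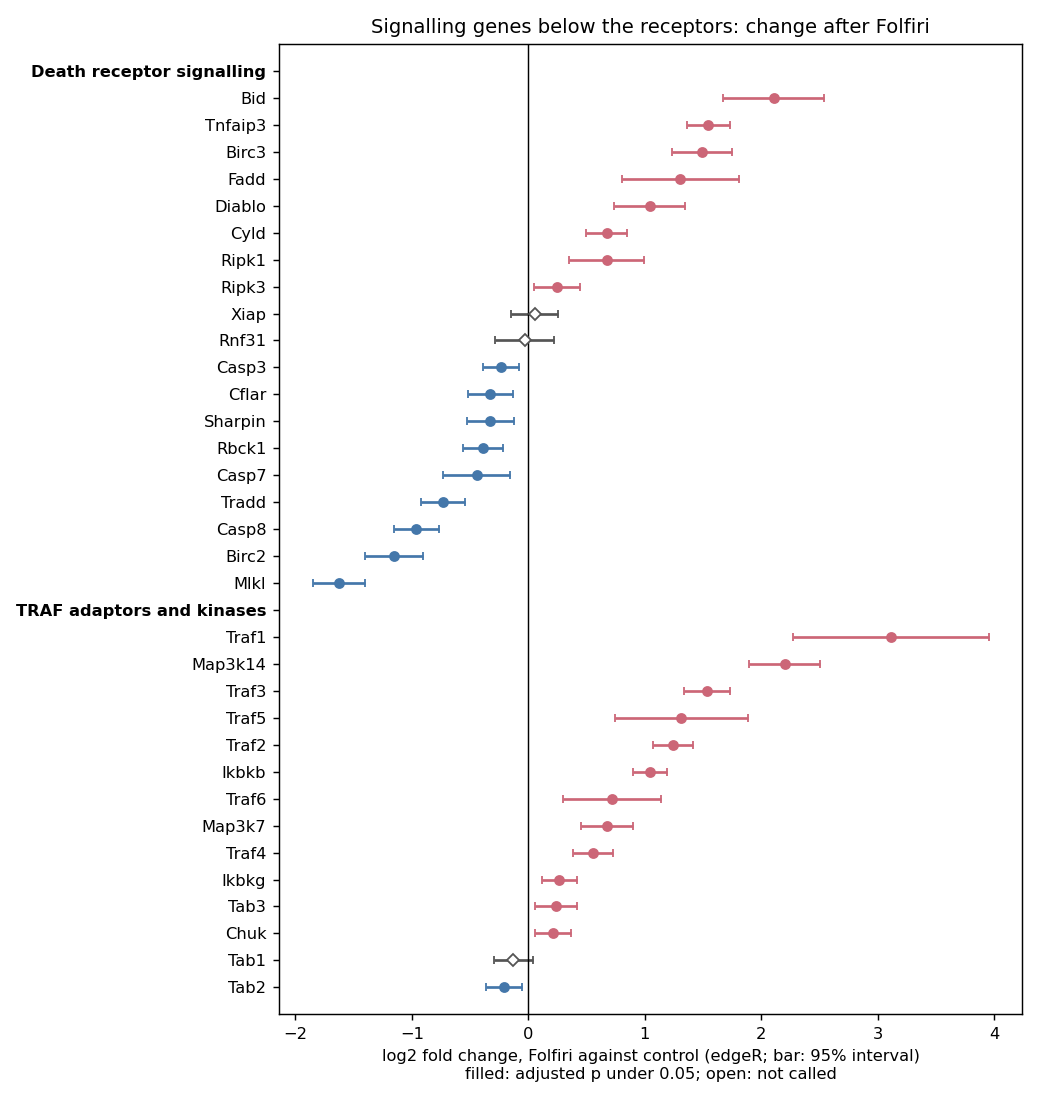
Log2 fold change after Folfiri against control (horizontal axis, edgeR) of 19 death receptor signalling genes and 14 TRAF adaptors and kinases, with 95% intervals from 3 samples a group, filled where the adjusted p was under 0.05. The first list spreads from -1.63 for Mlkl to 2.11 for Bid. In the second, 12 of the 14 genes lie to the right of 0 with a call, against 40.3% of all tested genes.

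The fold changes of the receptors were recomputed under 13 alternatives. The 6 receptors that were higher and did not depend on the Folfiri samples to pass the filter kept that call under all 13. Tnfrsf21 ranged from 1.35 to 1.66 on the log2 scale, Tnfrsf1b from 0.62 to 0.99, Tnfrsf11b from 0.53 to 0.90, Ltbr from 0.56 to 0.89, Tnfrsf12a from 0.36 to 0.74 and Tnfrsf10b from 0.35 to 0.66. Scaling by total counts gave the highest value for each of these 6. Fas, which a stricter filter removed, ranged from 1.70 to 2.75 over the 12 alternatives that kept it. The plot of alternatives shows where Tnfrsf1a and Tnfrsf19 changed their call.

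**Figure D5:**
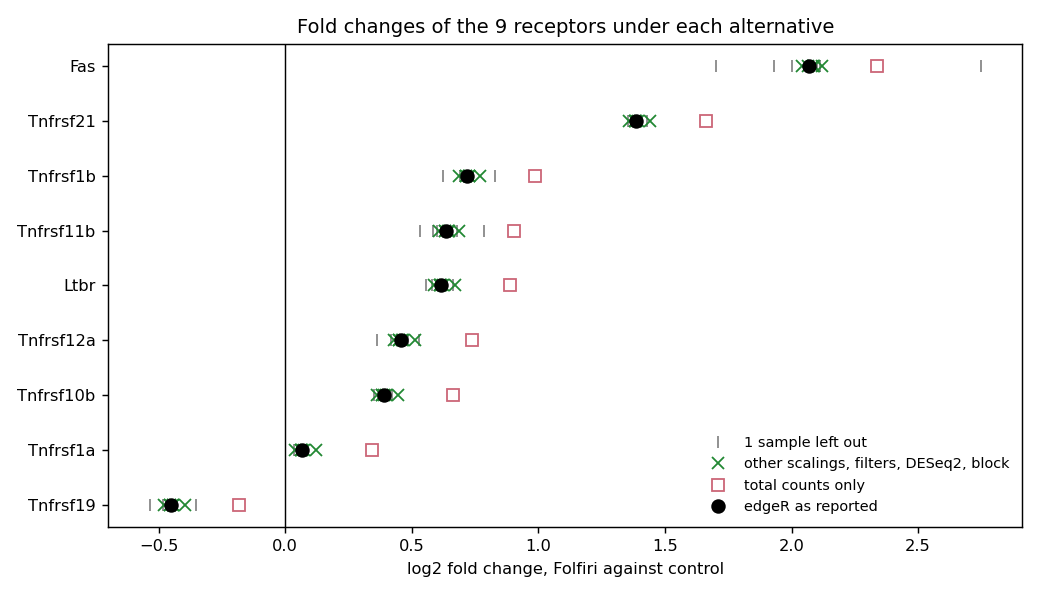
Log2 fold change after Folfiri against control (horizontal axis) of the 9 receptors as reported (filled circles), with 1 sample left out (ticks), with other scalings, filters, DESeq2 or the replicate block (crosses) and with total counts only (squares). Total counts only moved Tnfrsf1a from 0.07 to 0.34 and Tnfrsf19 from -0.45 to -0.18, and no receptor crossed 0.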

How the data were processed

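RNA of 3 control and 3 Folfiri samples was sequenced after poly(A) selection. Reads had been aligned by the authors with STAR (2.5.2) to GRCm38 with GENCODE annotation and assigned to genes with Rsubread, and raw counts per gene were deposited. Strand setting and treatment of multi-mapping reads are not given in the sources used here. Symbols, positions and exon lengths were taken from GENCODE vM21 (GRCm38), which held 24124 of the 24190 identifiers.

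Counts were analyzed with edgeR 4.0.16 in R 4.3.3 (filterByExpr at default settings, TMM, quasi-likelihood test, Benjamini-Hochberg adjustment over 14692 genes, threshold 0.05). SE was the absolute log2 fold change divided by the square root of F. Ratios between genes used TMM-normalized CPM per kb of exon and exact permutation tests. Alternatives were DESeq2 1.42.0 (Wald test, size factors), total counts, upper quartile scaling, no filter or 1 CPM in 3 samples, the replicate number as a block and each sample left out. The edgeR fit was tested on simulated data and called 200 of 200 changed genes in the right direction, with 10 other calls among 14446 genes. Named were all 10 members and, in each pathway list, up to 4 genes per direction with the largest change among those called, at a mean of at least 1 CPM and with separate groups. Fasl, Ltb and the markers named singly were chosen after their values were seen. A searched promoter motif is not reported here. The members and lists were chosen with earlier results of these data known.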

Additional observations from a re-analysis of the deposited data

How the results depend on the processing

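The share of higher genes among all calls was 51.0%, and 63.3% with total counts only, which moved the median log2 fold change of all genes from 0.02 to 0.30. Under that scaling no member was lower (0 in place of 1), nor were other receptors (0 in place of 2) or TRAF adaptors and kinases (0 in place of 1), and 4 in place of 9 death receptor signalling genes were. The shift of all genes is part of that scaling. The log2 fold change of Tab2 became 0.067, and it was also not called with upper quartile scaling, which gave 0 lower TRAF genes. Leaving out 1 sample at a time gave 0 to 1 lower TRAF genes and 0 to 1 lower ligands, the 1 being without control replicate 1. Weighting by mean log2 levels turned the receptor balance to 0.69 from -0.116, or to 0.27 with Fas left out, which carried most of the 0.69, and a pseudocount of 0.1 made the difference of the Trail receptor ratio -0.0891 in place of -1.89. Of 402 recomputed fold changes of 31 genes, 394 kept direction and call. Replicate numbers did not pair the samples, the deviations of same-numbered samples correlating at 0.0267, -0.117 and 0.0393, so that not every sample correlated best with its own number. With the replicate block, 5878 genes were higher and 5621 lower in place of 5926 and 5697, 7 members were higher and 1 lower, and no call changed among the 31 genes recomputed. Beyond the shift of all genes, the causes of these changes were not tested. Few counts limit Fas and Tnfsf10.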

Other observations

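Fas ligand (Fasl) did not pass the expression filter. It had 0, 0 and 1 counts in control replicates 1, 2 and 3 and 6, 17 and 14 counts in Folfiri replicates 1, 2 and 3, so that both the receptor Fas and its ligand had more reads in every treated sample than in any control. Ltb, a lymphotoxin subunit and part of the Ltbr ligand, had 7, 9 and 7 counts in controls and 38, 47 and 35 counts after Folfiri, a log2 fold change of 1.99. Ltb passed the filter only through the Folfiri samples, so its values are a description. Some immune markers at a similar low level were also higher after Folfiri, and the part of such cells in the reads of Fasl and Ltb was not tested.

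The receptors differ widely in genomic span. Tnfrsf19, the receptor that fell, spans 82616 bases and Tnfrsf21, which rose, 72635 bases, while the other members span between 2024 and 37107 bases. Of all tested genes with a position, the 2493 with a span of at least 70 kb had a median log2 fold change of -0.29 and 50.9% of them were lower in edgeR's test, against 0.09 and 36.2% of the 12175 shorter genes. The cut of 70 kb was not planned and lies just below the span of Tnfrsf21, so that it parts Tnfrsf19 and Tnfrsf21 from the other members. The part of span in the values of single receptors was not tested.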
